A study of Mus musculus with 9 samples.

Results

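Axon guidance ligands and receptors are the proteins that steer growing axons and that in the adult brain also act on synapses, glia and blood vessels. The genes described here are the protein-coding rows of the expression table that belong to the Eph receptors, ephrins, semaphorins of classes 3 to 7, plexins, Slits, Robos and Unc5 receptors, together with Nrp1, Nrp2, Dcc, Ntn1 and Ntn4, all chosen by gene symbol. They number 67 of 55385 rows, and the table's own KEGG annotation gives 62 of them its axon guidance term. A filter of at least 0.5 FPKM (a read level corrected for transcript length and sequencing depth) in at least 3 of 9 libraries left 16982 genes, among them 65 of the 67.

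The libraries hold total RNA, depleted of ribosomal RNA, from the hemisphere on the ischemic side of male C57BL/6 mice 8 to 10 weeks old. Sham mice (3 libraries) had the neck surgery without occlusion. The tMCAO mice (3 libraries; transient middle cerebral artery occlusion, a model of ischemic stroke) had the artery closed by a filament for 90 min before reperfusion. The celastrol mice (3 libraries) had the same occlusion and were given the plant triterpenoid celastrol, 4.5 mg/kg into the peritoneum, as reperfusion began. No group received celastrol without occlusion, and the sources used here name no vehicle for the other groups, no time to sampling and no number of animals per library. The p-values therefore measure the spread between these libraries, which may be technical.

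Guidance cues act in pairs of ligand and receptor. Ephrins of class A are tethered to the membrane by a lipid anchor and those of class B span it, and both bind Eph receptor tyrosine kinases on a neighbouring cell, mostly to repel. Class 3 semaphorins are secreted and act through neuropilins and plexins, whereas most other semaphorins are membrane proteins that bind plexins directly. Slits bind Robo receptors to repel axons, and netrins attract through Dcc and repel through Unc5 receptors. Several of the receptors also shape vessels, and some of the cues limit axon regrowth after injury of the adult nervous system.

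The libraries held 60392960 to 75158625 estimated counts (median 68726348). Genes of excitatory neurons, astrocytes and oligodendrocytes were present in every library, as a brain hemisphere should show: the 6 markers of each type summed to at least 1500, 2790 and 2230 CPM (counts scaled to library totals with TMM factors). No marker list had a gene at 0 in all libraries. On the first principal component of all genes tested (31.0% of the variance) celastrol replicate 2 lay at −23.2, on the side of the sham libraries, which lay between −58.7 and −25.8, and the other occluded libraries lay between 17.0 and 58.1. Markers of brain regions varied within groups. Summed markers of striatal projection neurons ranged from 206 to 1220 CPM in sham, from 234 to 753 in tMCAO and from 165 to 361 with celastrol. Thalamic markers summed to 337 CPM in sham replicate 1, 547 in tMCAO replicate 2 and 338 in celastrol replicate 3, against 61.5 to 166 in the other libraries, and choroid plexus markers reached 1800 CPM in celastrol replicate 1.

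Levels between genes were compared in FPKM, which is scaled for transcript length. Sema7a, a lipid-anchored semaphorin that binds plexin C1 and integrins, had the highest mean over the 9 libraries, 40.2 FPKM (range 25.7 to 53.2). Ephb6, an Eph receptor without kinase activity, followed at 25.8 FPKM (14.8 to 36.9), and the ligand gene Efnb3 at 25.1 FPKM (12.9 to 34.3). Epha4, a repulsive receptor of adult neurons and astrocytes, had 22.5 FPKM (16.3 to 29.4). Of the 67 genes, 61 had a mean of at least 1 FPKM, 24 of at least 5 and 11 of at least 10. The median over the 65 genes that passed the filter was 3.30 FPKM, against 4.11 over all genes that passed it. In the order of mean FPKM, all 66 pairs of neighbours had overlapping ranges over the 9 libraries.

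The most abundant member differed widely between families. Sema6b led the class 6 semaphorins, transmembrane ligands of class A plexins, at 18.8 FPKM, and Unc5a led the repulsive netrin receptors at 17.6 FPKM. Efna3 led the class A ephrins at 16.2 FPKM, Slit1 the Slits at 12.6 FPKM and Plxna1 the plexins at 12.2 FPKM. Lower leaders were Sema4d at 8.29 FPKM, a ligand of plexin B1 made by oligodendrocytes, Robo2 at 5.33, Nrp2 at 4.15, Sema3c at 3.53, Sema5a at 3.02 and Ntn4 at 2.23 FPKM. Dcc, the attractive netrin receptor, had a mean of 1.53 FPKM. The lowest genes past the filter were Sema3b (0.652 FPKM), Epha3 (0.756) and Epha2 (0.769). Efna4 (0.0331 to 0.305 FPKM) and Epha1 (0.0248 to 0.242 FPKM) did not pass it and were not tested.

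**Figure D1:**
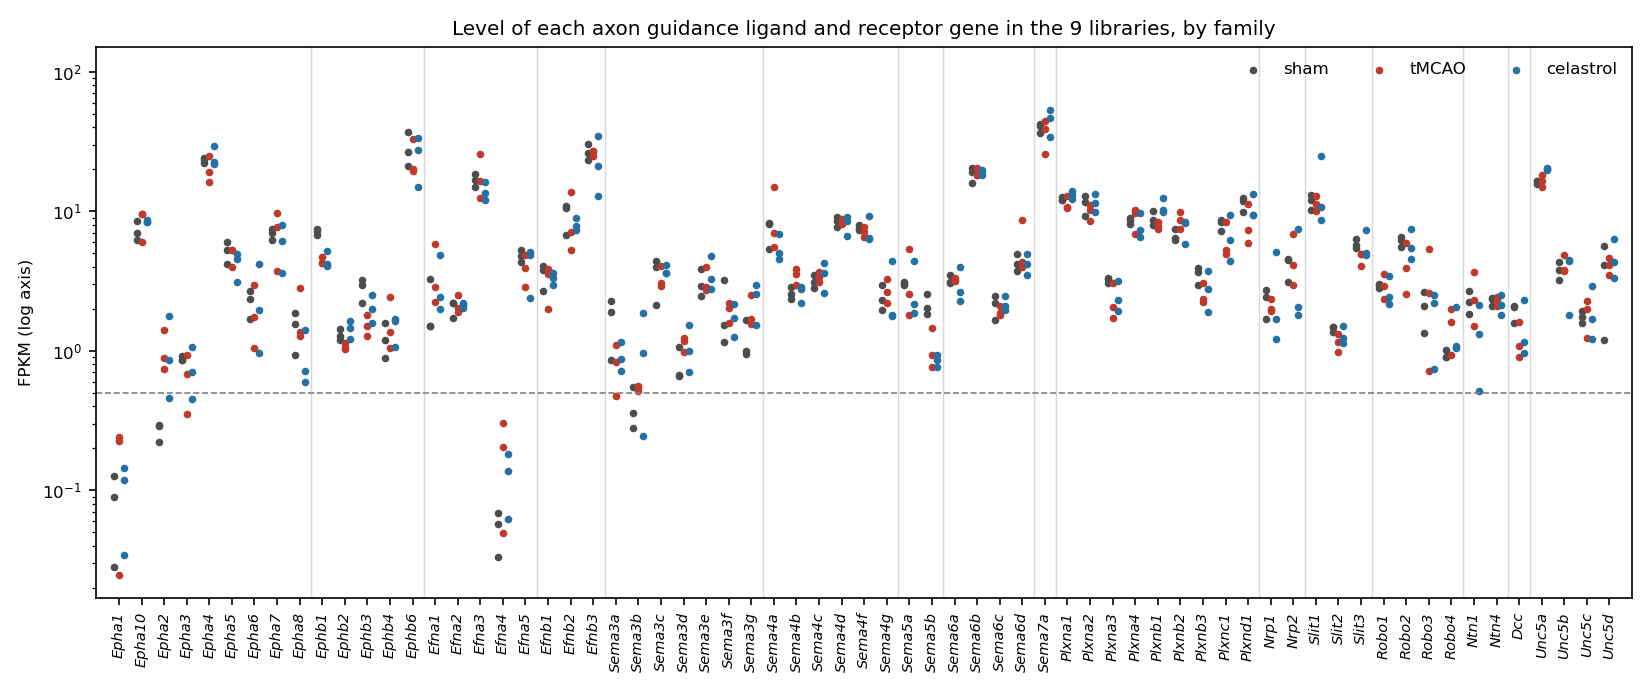
FPKM (log axis) of the 67 guidance genes in each of the 9 libraries, one dot per library, coloured by group and ordered by family; the dashed line marks 0.5 FPKM. Sema7a has the highest mean (40.2 FPKM), and Efna4 and Epha1 lie below the line in every library.

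The comparison of tMCAO with sham addresses what occlusion and reperfusion do to the guidance genes. Within them, class B Eph receptors, plexins and Slits mostly lay lower after tMCAO, and the receptor tyrosine kinase gene Epha2 lay higher. Ephb1 was at 33.9 ± 2.53 CPM (SD, n = 3) after tMCAO against 58.6 ± 1.93 in sham (SD, n = 3), and Sema5b at 8.17 ± 2.62 against 17.9 ± 3.33 CPM. No guidance gene passed the test: the quasi-likelihood test of edgeR, with Benjamini-Hochberg adjusted p-values over all genes, called 0 of 65 (0.0% of the 16982 genes tested were called). At an unadjusted p under 0.05 it had 12 guidance genes, 1 higher and 11 lower, where 8.56% of all genes lay higher and 6.36% lower at that level; without tMCAO replicate 2 it had 7. DESeq2, run as an alternative, called 4 of the 65, 1 higher and 3 lower, where it called 4.92% of all genes, 3.28% higher and 1.64% lower. Limma (0.0% of all genes) and a newer form of the quasi-likelihood fit (0.0118%) called 0 of the 65.

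Counts of libraries gave a similar split. In 11 guidance genes (16.9%) every tMCAO library lay below every sham library, against 11.1% of all genes tested. In 1 (1.54%), Epha2, every tMCAO library lay above every sham library, against 12.4% of all genes. Epha2 passed the filter only through the occluded groups. The log2 fold change was below 0 for 44 of the 65 (67.7%), against 49.1% of all genes, and its median was −0.10, against 0.01 (−0.17, against −0.00, without tMCAO replicate 2). On the scale of deposited FPKM, in limma on log2(FPKM + 0.5), 36 of the 65 (55.4%) were below 0, against 37.5% of all genes, and the median was −0.01, against 0.09. Overlap counted on deposited FPKM, an alternative chosen after the data were seen, left 7 of the 11 lower genes (10.8% of the 65, against 6.2% of all genes), without Dcc, Plxnb1, Plxnb3 and Robo2, and added Sema4b to Epha2 as higher (3.08%, against 18.8%). The median over the 33 receptors was −0.20 and over the 32 ligands −0.09.

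**Figure D2:**
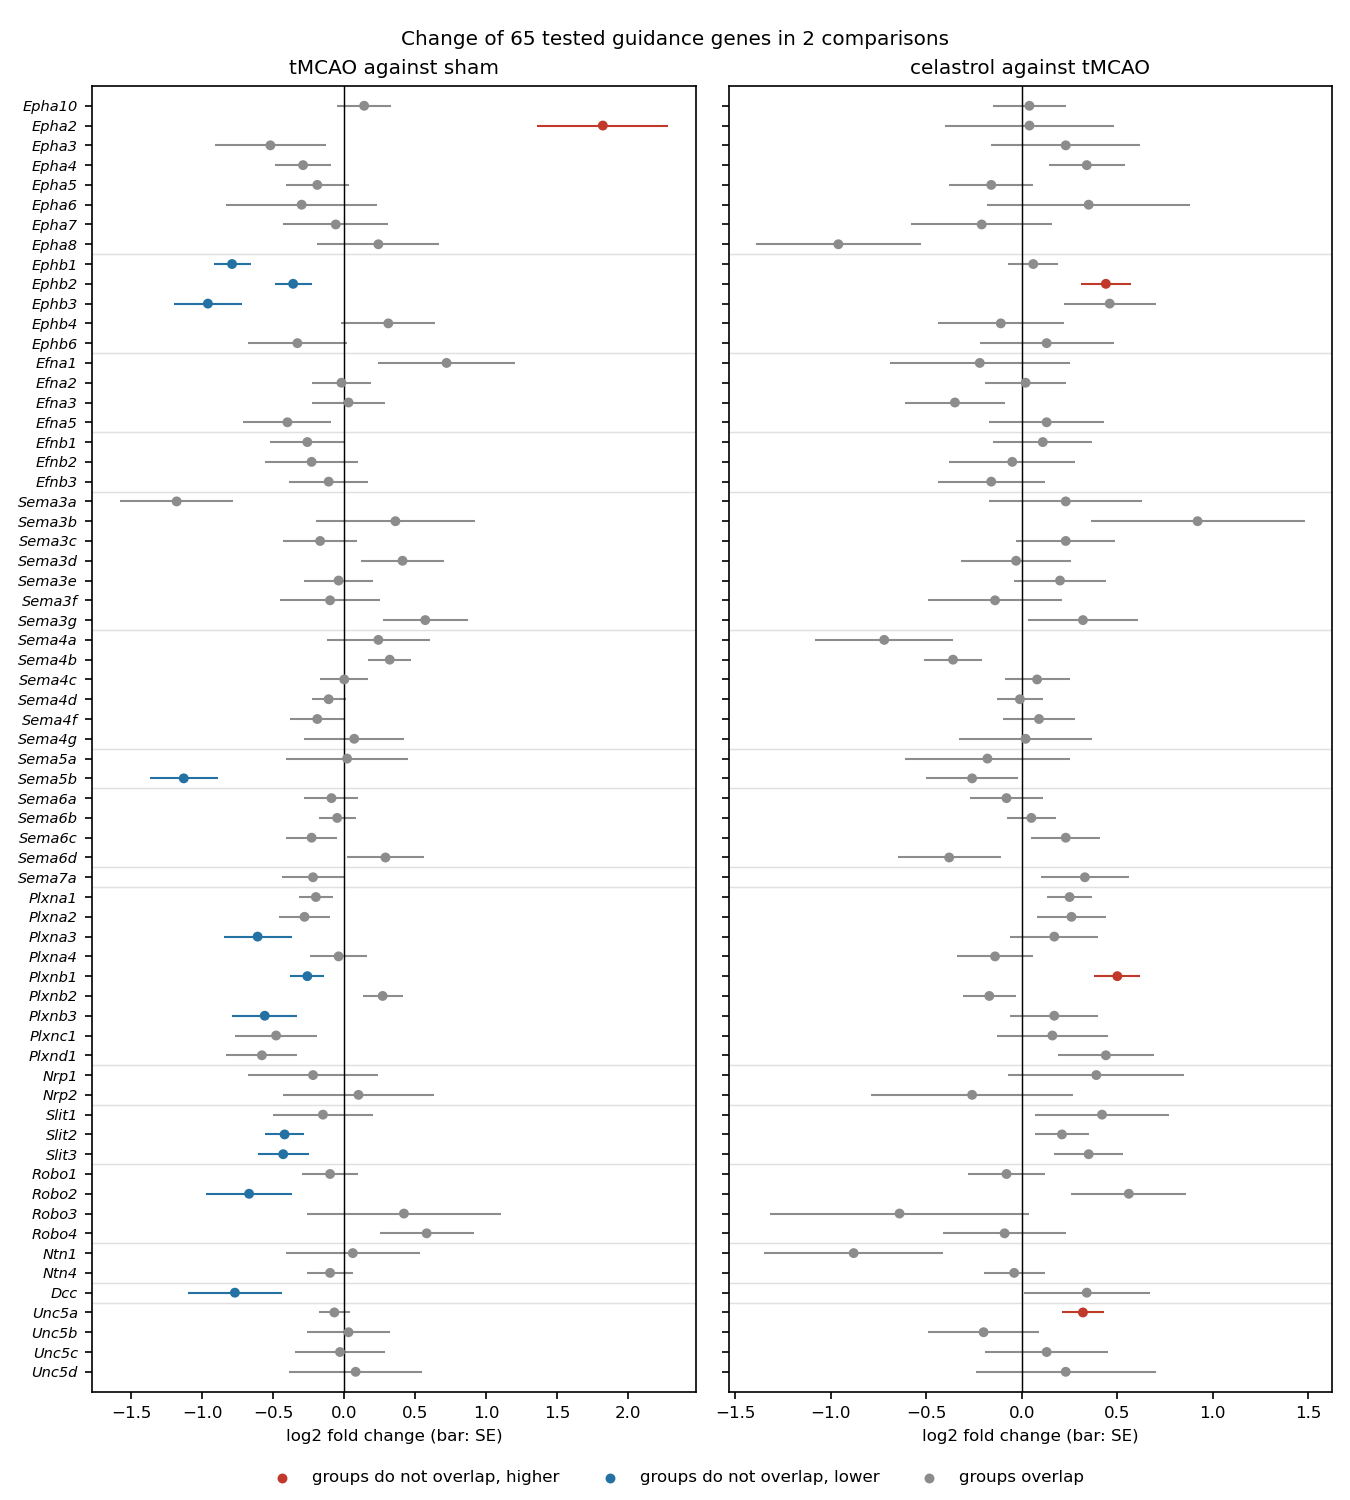
Log2 fold change (edgeR, bar: SE) of the 65 tested guidance genes for tMCAO against sham (left) and celastrol against tMCAO (right), by family. Blue marks the 11 genes on the left whose tMCAO libraries all lie below sham, and red the 1 gene on the left and the 3 on the right whose first-named group lies wholly above.

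The class B Eph receptors bind transmembrane ephrins and shape dendritic spines and commissural axons. Ephb1 (ENSMUSG00000032537, mm10 chromosome 9, 101922128 to 102354693, minus strand) had 59.2, 56.4 and 60.1 CPM in sham replicates 1 to 3. It had 33.1, 36.8 and 31.9 CPM in the tMCAO libraries and 30.3, 35.2 and 40.7 CPM in the celastrol libraries. All 6 occluded libraries lay below all sham libraries, and the spread within groups was small: the pooled SD of log2 CPM was 0.14, lower than for most guidance genes. The log2 fold change for tMCAO against sham was −0.79 ± 0.13 (SE), with an unadjusted p of 0.000177 and an edgeR adjusted p of 0.0907 over all genes tested. DESeq2 gave −0.80 with an adjusted p of 3.47e-06.

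Ephb3 (ENSMUSG00000005958, chromosome 16, 21204755 to 21223304, plus strand), a receptor with roles in commissure formation and spine maturation, had 16.7, 23.5 and 25.1 CPM in sham. It had 9.41, 13.3 and 10.8 CPM after tMCAO and 14.2, 19.97 and 11.8 CPM with celastrol. The tMCAO libraries lay below sham, and the celastrol libraries overlapped both other groups. Its log2 fold change was −0.96 ± 0.24 (SE; edgeR adjusted p = 0.168), and DESeq2 gave −0.97 with an adjusted p of 0.01. Ephb2, a receptor at excitatory synapses, had 20.7, 18.03 and 18.9 CPM in sham and 15.9, 15.1 and 13.9 CPM after tMCAO. Those groups did not overlap either, at a log2 fold change of −0.36 ± 0.13 (SE; edgeR adjusted p = 0.281). Ephb6 (−0.33 ± 0.35) and Ephb4 (0.31 ± 0.33), the receptor of venous endothelium, overlapped between the groups, Ephb6 lay at −0.07 without sham replicate 2, and Ephb4 lay at −0.10 without tMCAO replicate 3. Summed over the 5 class B receptors, sham libraries held 231 ± 36.7 CPM and tMCAO libraries 168 ± 28.7 CPM (SD, n = 3 each).

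Among class A Eph receptors Epha2 (ENSMUSG00000006445, chromosome 4, 141301240 to 141329384, plus strand), a receptor of epithelium and vessels whose main ligand is ephrin-A1, stood apart in direction. It had 1.55, 1.64 and 1.23 CPM in sham, 7.25, 3.87 and 4.47 CPM after tMCAO and 8.97, 2.57 and 4.50 CPM with celastrol. Every occluded library lay above every sham library, by 1.82 ± 0.46 (SE) on the log2 scale for tMCAO (edgeR adjusted p = 0.169, DESeq2 adjusted p = 0.00624). In sham the gene lay at 0.221 to 0.292 FPKM, under the filter, which it passed only through the occluded groups, so that its presence among the tested genes already required a difference. The summed level of 8 endothelial markers was 253 to 265 CPM in sham, 266 to 339 after tMCAO and 269 to 414 with celastrol, and the libraries highest in Epha2 within each occluded group were also the highest in that sum. Its members went both ways after tMCAO. Pecam1, Cdh5 and Esam lay above all sham libraries, Tek (7.55 to 16.2 against 17.2 to 19.3 CPM) and Slco1a4 (20.8 to 55.4 against 56.0 to 59.9 CPM) lay below them, and Cldn5, Flt1 and Kdr overlapped. The part of endothelial RNA in the level of Epha2 was not tested, and in bulk tissue a change in the number of cells of a type and a change in RNA per cell cannot be told apart. The other 7 class A receptors tested, which include Epha4 (−0.29 ± 0.20, SE, or −0.16 without tMCAO replicate 3), ranged from −0.52 to 0.24 and overlapped between the groups.

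The stretches before the transcription starts of these 3 receptor genes are shown because the genes had DESeq2 calls for tMCAO against sham and their upstream sequence is in the RefSeq tables used here (GRCm38.p6), which held an entry for 57 of the 67 genes. The fourth gene with such a call, the ligand gene Sema5b, is not shown, because only 33 bases of its entry lie before the start of the gene in the deposited table. Capitals mark matches to motifs searched on both strands: the AP-1 site TGANTCA, the GC box GGGCGG, the E-box CACGTG, the cAMP response element TGACGTCA and the TATA box TATAAA. The bases are read 5′ to 3′ on the strand of the gene. Ephb1 is at chr9:102354694-102354943 (minus strand), Ephb3 at chr16:21204545-21204754 (plus strand) and Epha2 at chr4:141300971-141301220 (plus strand).
Ephb1: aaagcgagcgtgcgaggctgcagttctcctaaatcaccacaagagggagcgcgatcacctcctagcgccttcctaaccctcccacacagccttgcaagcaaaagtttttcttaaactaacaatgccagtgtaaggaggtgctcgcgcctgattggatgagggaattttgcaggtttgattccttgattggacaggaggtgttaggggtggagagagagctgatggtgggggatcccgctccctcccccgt
Ephb3: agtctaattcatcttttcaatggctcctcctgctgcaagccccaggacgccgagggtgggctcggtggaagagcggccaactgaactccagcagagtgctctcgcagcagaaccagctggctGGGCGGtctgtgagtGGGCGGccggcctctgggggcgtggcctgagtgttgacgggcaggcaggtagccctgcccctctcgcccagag
Epha2: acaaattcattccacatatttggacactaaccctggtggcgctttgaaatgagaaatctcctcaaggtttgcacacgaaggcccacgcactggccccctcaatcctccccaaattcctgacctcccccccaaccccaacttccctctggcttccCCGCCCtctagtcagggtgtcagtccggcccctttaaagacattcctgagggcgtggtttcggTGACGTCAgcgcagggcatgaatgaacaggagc
The Ephb1 stretch held none of these letters. Ephb3, shown up to where the deposited table starts the gene, held 2 GC boxes, at −128 and −113 from the RefSeq start. Epha2 held a GC box on the other strand at −96 and a cAMP response element at −33. Of 32536 mouse promoters of 250 bases, 33.0% hold a GC box, 1.56% the cAMP response element and 6.73% an AP-1 site, 6.04% the E-box and 12.3% the TATA box. Such matches describe letters and show no binding.

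Ephrins, the ligands of the Eph receptors, overlapped between tMCAO and sham in all 7 genes tested. The largest difference was that of Efna1, the ephrin of vessels, at 0.72 ± 0.48 (SE), with 6.81, 3.29 and 3.27 CPM in sham and 11.8, 4.61 and 5.58 CPM after tMCAO. Efna5 (−0.40 ± 0.31), Efnb1 (−0.26 ± 0.26), Efnb2 (−0.23 ± 0.33) and Efnb3 (−0.11 ± 0.28) lay lower with overlap. Without tMCAO replicate 1 the change of Efna1 was 0.19, and without sham replicate 1 it was 1.16. Single libraries also set the size of the lower values: without tMCAO replicate 2 Efnb1 lay at −0.02 and Efnb2 at 0.03, without tMCAO replicate 3 Efna5 lay at −0.22, and without sham replicate 1 Efnb3 lay at −0.03. The receptors Ephb1, Ephb2 and Ephb3 thus had groups that did not overlap while their class B ligands did, a difference between genes that was itself not tested.

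Of 20 semaphorins 1 had groups that did not overlap, a share of 5.0%, under the 11.1% lower and 12.4% higher over all genes. Sema5b (ENSMUSG00000052133, chromosome 16, 35541145 to 35664261, plus strand), a transmembrane semaphorin with thrombospondin repeats that repels axons and removes synapses in rodent neurons, had 14.9, 17.3 and 21.5 CPM in sham. It had 7.34, 6.07 and 11.1 CPM after tMCAO and 7.14, 6.56 and 6.80 CPM with celastrol. All occluded libraries lay below sham, at −1.13 ± 0.24 (SE) for tMCAO (edgeR adjusted p = 0.126, DESeq2 adjusted p = 0.00134). The gene overlaps Gm5963 on the opposite strand by 236 bases, and with no strand setting of the counting given here its level is uncertain to that extent. Its paralog Sema5a did not differ beyond its spread (0.02 ± 0.43, or −0.57 without tMCAO replicate 2).

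Sema3a, a secreted cue that collapses growth cones, had the most negative log2 fold change of the 65, −1.18 ± 0.40 (SE; edgeR adjusted p = 0.246). Its sham libraries were spread over 13.6, 37.9 and 31.1 CPM, and its tMCAO libraries had 12.7, 7.38 and 16.4 CPM, so that sham replicate 1 lay among the tMCAO libraries. The semaphorins that lay higher with the smallest p were Sema4b, a transmembrane ligand (0.32 ± 0.15), Sema3g, a secreted ligand made by endothelium (0.57 ± 0.30), and Sema3d (0.41 ± 0.29). With 1 library left out Sema3g ranged from 0.35 (tMCAO replicate 3) to 0.85 (sham replicate 1), and Sema3d reached 0.64 (sham replicate 1). Sema6d (0.29 ± 0.27), a ligand of plexin A1, owed its direction to 1 library: it had 50.7, 46.7 and 97.1 CPM after tMCAO against 50.4, 46.9 and 61.9 in sham, and its log2 fold change was −0.13 without tMCAO replicate 3. All these groups overlapped.

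Plexins, the signalling receptors of semaphorins, summed to 754 ± 42.1 CPM after tMCAO and 893 ± 64.5 CPM in sham (SD, n = 3 each), and 8 of the 9 had a log2 fold change below 0. Over all genes tested 49.1% were below 0. Among the 8, Plxna4 lay at −0.04 ± 0.20 (SE), or 0.12 without tMCAO replicate 3. Plxna3, a co-receptor of neuropilins, had 29.6, 31.5 and 28.6 CPM in sham, 15.1, 18.1 and 25.7 CPM after tMCAO and 16.5, 21.8 and 28.0 CPM with celastrol. Both occluded groups lay below sham, although celastrol replicate 3 missed the lowest sham library by under 1 CPM. The log2 fold change for tMCAO was −0.61 ± 0.24 (SE; edgeR adjusted p = 0.299). Plxnb3, a receptor of oligodendrocytes, had 27.4, 22.8 and 29.9 CPM in sham and 16.9, 16.3 and 21.3 CPM after tMCAO, which did not overlap (−0.56 ± 0.23, edgeR adjusted p = 0.316). Plxnb1, the receptor of Sema4d, had 109, 90.6 and 97.7 CPM in sham and 79.3, 88.9 and 80.5 CPM after tMCAO, which did not overlap either (−0.26 ± 0.12).

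Plxnd1, the receptor of Sema3e on vessels and axons, lay lower by p but overlapped, with 82.1, 104 and 108 CPM in sham and 59.3, 48.3 and 88.6 CPM after tMCAO (−0.58 ± 0.25, edgeR adjusted p = 0.331). Plxnb2, a plexin of many dividing and immune cells, was the 1 plexin above 0, at 0.27 ± 0.14 (SE), or 0.18 without tMCAO replicate 3. The neuropilins, which bind class 3 semaphorins and vascular endothelial growth factor, lay at −0.22 ± 0.46 (Nrp1) and 0.10 ± 0.53 (Nrp2). Without tMCAO replicate 3 Nrp2 lay at −0.28, and without sham replicate 1 Nrp1 lay at −0.09.

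Slits are secreted and bind Robo receptors. Slit2 had 43.2, 41.3 and 44.8 CPM in sham and 32.5, 27.9 and 36.1 CPM after tMCAO. Slit3 had 37.6, 45.9 and 41.3 CPM in sham and 33.1, 27.4 and 32.3 CPM after tMCAO. Both ligands lay below sham without overlap, at −0.42 ± 0.14 (SE; edgeR adjusted p = 0.23) and −0.43 ± 0.18 (SE; edgeR adjusted p = 0.316), whereas Slit1 overlapped (−0.15 ± 0.35, or −0.07 without tMCAO replicate 1). Robo2, a receptor of neurons, had 108, 126 and 130.0 CPM in sham and 48.3, 73.9 and 107 CPM after tMCAO; its groups missed each other by about 1 CPM (−0.67 ± 0.30, or −0.42 without tMCAO replicate 1). Robo1 (−0.10 ± 0.20) overlapped, and Robo4, the Robo of endothelium, lay higher with overlap at 0.58 ± 0.33 (SE). Without tMCAO replicate 1 Robo1 lay at 0.03 and Robo4 at 0.31.

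The netrin receptor Dcc had 31.1, 25.0 and 32.3 CPM in sham and 15.8, 13.3 and 22.7 CPM after tMCAO, without overlap (−0.77 ± 0.33, edgeR adjusted p = 0.328). Its ligand Ntn1 was at 16.5 ± 3.06 CPM in sham and 17.1 ± 7.22 CPM after tMCAO (SD, n = 3 each), and Ntn4, a netrin of basement membranes, at 10.0 ± 0.576 and 9.34 ± 0.684 CPM. The 4 Unc5 receptors lay between −0.07 and 0.08 on the log2 scale, with an SE from 0.11 (Unc5a) to 0.47 (Unc5d). With 1 library left out Unc5d ranged from −0.33 to 0.52 and Unc5c from −0.23 to 0.18.

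Summed levels of some cell type markers also differed between sham and tMCAO without overlap, while few of the single markers of neurons or precursors did so by test. The 6 markers of excitatory neurons summed to 1980 to 2910 CPM in sham and 1500 to 1940 CPM after tMCAO, the 5 markers of oligodendrocyte precursors to 171 to 191 and 106 to 156 CPM, and the 6 of astrocytes to 3510 to 4310 and 2790 to 3400 CPM. At an unadjusted p under 0.05 were 1 of the 6 excitatory, 0 of the 5 precursor and 3 of the 6 astrocyte markers. These counts carry no direction, and single markers went both ways. Among astrocyte markers Gja1 lay below all sham libraries (71.5 to 134 against 168 to 220 CPM) and Aldh1l1 above them (71.3 to 97.4 against 47.6 to 68.6 CPM). Slc1a2, at 1870 to 3390 CPM, made up most of that sum. Among precursor markers Gpr17 lay lower (11.6 to 53.9 against 61.2 to 101 CPM), while Pdgfra overlapped (72.7 to 75.3 against 58.7 to 73.2 CPM). Sums for inhibitory neurons (928 to 1120 CPM in sham, 892 to 1150 after tMCAO) and oligodendrocytes (2300 to 3970 and 2630 to 4120 CPM) overlapped. Markers of neutrophils summed to at most 1.84 CPM in sham and 9.22 to 17.9 CPM after tMCAO, and those of monocytes and macrophages to at most 2.74 and to 12.6 to 64.0 CPM. How much of the lower guidance levels goes with these cells was not tested.

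**Figure D3:**
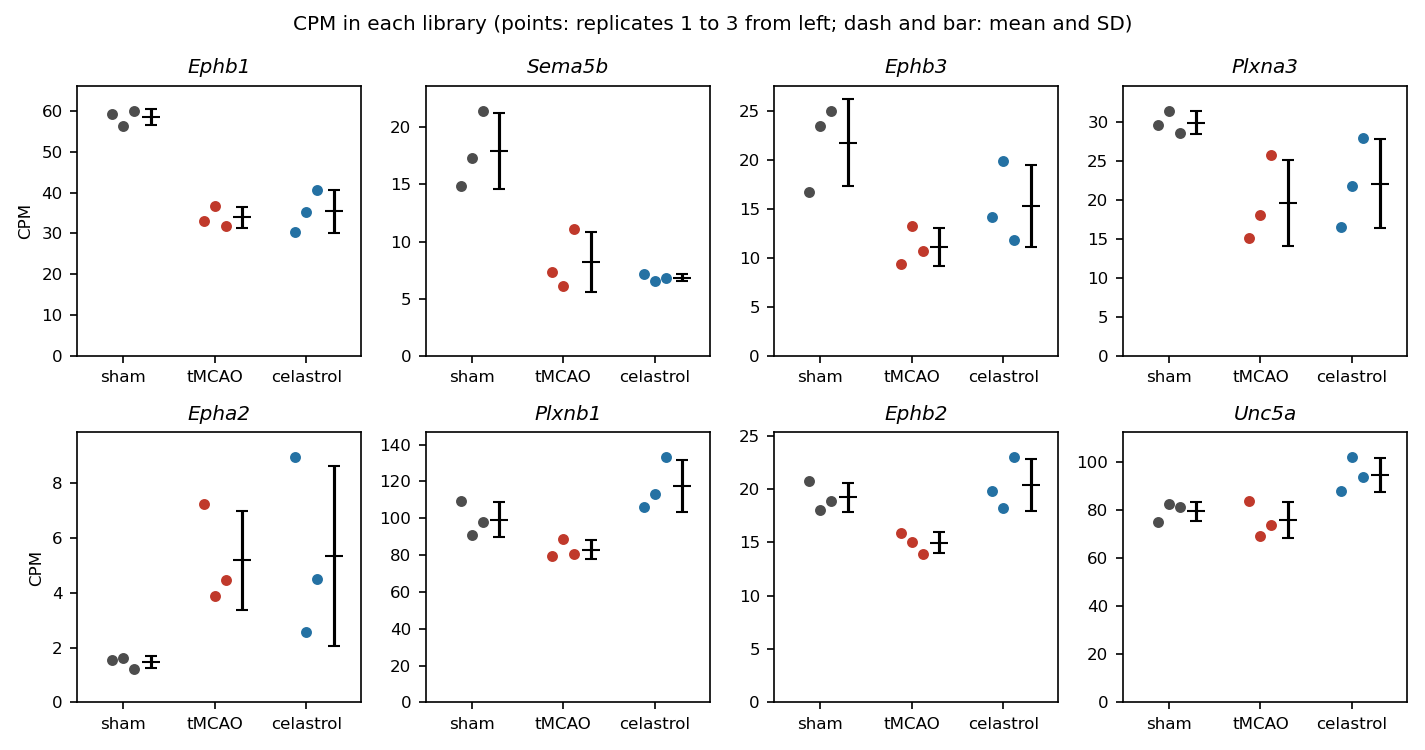
CPM of 8 guidance genes in the 9 libraries (dots, replicates 1 to 3 from left in each group) with the group mean and SD (black). In Ephb1, Sema5b and Plxna3 both occluded groups lie below sham, in Epha2 both lie above, and in Plxnb1, Ephb2 and Unc5a the celastrol libraries lie above the tMCAO libraries.

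The comparison of celastrol with tMCAO addresses what the compound changes after occlusion. Plxnb1, Ephb2 and Unc5a lay higher with celastrol in every library, and no guidance gene lay lower in every library in CPM. edgeR's test called 0 of 65 guidance genes (0.0% of all genes tested), as did DESeq2 (0.106% of all genes), limma and the newer fit. At an unadjusted p under 0.05 there were 3 higher and 1 lower guidance genes, where 2.25% and 1.86% of all genes were at that level, and these 4 became 9 when tMCAO replicate 3 was left out, 10 for celastrol replicate 3 and 8 for celastrol replicate 1. The 3 genes without overlap make up 4.62% of the 65, against 3.73% of all genes tested, so their number is near the background, and 4.13% of all genes lay wholly lower. On deposited FPKM the same 3 genes lay wholly higher (4.62%, against 2.71% of all genes) and 1, Sema4b, wholly lower (1.54%, against 5.31%). Because both comparisons share the tMCAO libraries, a low value there lowers 1 change and raises the other, and the values are given side by side.

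Plxnb1 had 106, 113 and 133 CPM with celastrol against 79.3, 88.9 and 80.5 CPM after tMCAO, with sham between 90.6 and 109 CPM. The log2 fold change was 0.50 ± 0.12 (SE), with an unadjusted p of 0.00241 and an edgeR adjusted p of 0.976. Ephb2 had 19.8, 18.2 and 23.0 CPM with celastrol against 15.9, 15.1 and 13.9 CPM (0.44 ± 0.13, edgeR adjusted p = 0.976). For both genes the celastrol libraries overlapped sham, and celastrol replicate 3 was the highest of all 9 libraries. Unc5a had 87.9, 102 and 93.6 CPM with celastrol against 83.9, 69.2 and 74.0 CPM after tMCAO, and lay above all sham libraries too (74.9, 82.5 and 81.1 CPM). Its change was 0.32 ± 0.11 (SE; edgeR adjusted p = 0.976), and it had the smallest spread within groups of the 65 genes (pooled SD of log2 CPM 0.111). Unc5a overlaps Hk3 on the opposite strand by 34 bases, and its counts are uncertain to that extent.

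Next by p among the higher genes were Plxna1, a co-receptor of neuropilins (0.25 ± 0.12), and Slit3 (0.35 ± 0.18), both with overlap. Slit3 had 31.8, 36.4 and 49.7 CPM with celastrol, and its change was 0.13 without celastrol replicate 3. Sema4b was the lower gene by unadjusted p, with 17.0, 14.9 and 18.1 CPM against 22.0, 24.2 and 17.8 CPM (−0.36 ± 0.15, edgeR adjusted p = 0.976). Epha8 (−0.96 ± 0.43), Ntn1 (−0.88 ± 0.47), Sema4a (−0.72 ± 0.36) and Sema6d (−0.38 ± 0.27) lay lower with overlap. A single library stood apart in each of these 4. Ntn1 was at 3.64 CPM in celastrol replicate 3 against 14.4 and 9.84 CPM in the other celastrol libraries (−0.51 without it), and Sema4a at 89.7 CPM in tMCAO replicate 1 against 42.1 and 32.3 CPM in the other tMCAO libraries (−0.16 without it). Epha8 was at 14.7 CPM in tMCAO replicate 2 against 7.15 and 6.41 CPM (−0.49 without it). Sema6d was highest in tMCAO replicate 3, as given above, and without that library its direction turned, to 0.04.

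Of the 65 genes 39 lay above tMCAO with celastrol, against 49.3% of all genes, with a median of 0.08 against −0.00. This balance turned on 1 library: without celastrol replicate 3, 28 lay above and the median was −0.05. Without celastrol replicate 2, 44 lay above. The 11 genes without overlap below sham after tMCAO were picked by low tMCAO libraries, which also serve as the baseline here. That choice alone favours values above 0. The share over all genes picked in the same way was not computed. Of the 11, Ephb2 and Plxnb1 lay above tMCAO in every celastrol library, and the other 9 overlapped. Of these, Robo2 (0.56 ± 0.30), Ephb3 (0.46 ± 0.24), Slit3 (0.35 ± 0.18), Dcc (0.34 ± 0.33), Slit2 (0.21 ± 0.14), Plxna3 (0.17 ± 0.23), Plxnb3 (0.17 ± 0.23) and Ephb1 (0.06 ± 0.13) had values above 0 and Sema5b (−0.26 ± 0.24) below. Without celastrol replicate 3 Dcc, Plxna3, Plxnb3 and Ephb1 turned to −0.13, −0.04, −0.10 and −0.06 and Slit2 lay at 0.09. Sema5b lay at 0.03 without tMCAO replicate 3, and Ephb3 and Robo2 at 0.22 and 0.28 without celastrol replicate 2.

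The comparison of celastrol with sham addresses which genes differ from the hemisphere without occlusion. edgeR called 0 of 65 (0.00589% of all genes tested, 1 gene), limma 0 (0.00589%) and the newer fit 0 (0.0353%), with 3 higher and 3 lower guidance genes at an unadjusted p under 0.05, where 5.69% and 2.81% of all genes were at that level. Those 6 became 3 without sham replicate 2 or 3 and 13 without celastrol replicate 3. DESeq2 called 3 of 65 (2.24% of all genes, 1.85% higher and 0.389% lower): Epha2 higher (adjusted p = 0.00677), and Ephb1 (3.91e-05) and Sema5b (3.37e-05) lower. Groups did not overlap for 3 higher genes (7.89% of all genes tested), Epha2, Robo4 and Unc5a, and for 3 lower genes (5.54%), Ephb1, Plxna3 and Sema5b. On deposited FPKM the same 3 lay wholly higher (4.62%, against 8.91% of all genes), and 2 lower (3.08%, against 4.24%), without Plxna3. Epha2, Ephb1, Plxna3 and Sema5b were on the same side of sham in both occluded groups, 1 higher and 3 lower, where 4.2% of all genes were wholly higher in both and 2.53% wholly lower. As given above, Epha2 passed the filter only through the occluded groups, so its part in these counts of higher genes and calls is not independent of the filter. The comparisons share the sham libraries. Of the 65 genes 39 lay below sham with celastrol, against 49.6% of all genes, with a median of −0.11 against 0.00. Without celastrol replicate 1 there were 33, with a median of −0.01.

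Sema5b lay at 6.83 ± 0.289 CPM with celastrol (SD, n = 3), its lowest and tightest group, at −1.39 ± 0.24 (SE; edgeR adjusted p = 0.137) from sham. Ephb1 lay at −0.73 ± 0.13 (SE; edgeR adjusted p = 0.137) and Epha2 at 1.86 ± 0.46 (SE; edgeR adjusted p = 0.271), or 1.26 without celastrol replicate 1. Sema3g had 14.4, 8.30 and 13.0 CPM with celastrol against 8.63, 5.17 and 5.36 CPM in sham (0.89 ± 0.30, edgeR adjusted p = 0.42), where celastrol replicate 2 lay under the highest sham library. Robo4 had 11.8, 6.86 and 6.24 CPM against 6.21, 5.75 and 5.72 CPM, so that its lowest celastrol library and its highest sham library nearly met (0.49, or 0.15 without celastrol replicate 1). Endothelial markers summed highest in celastrol replicate 1, at 414 CPM, where Robo4, Sema3g and Epha2 also had the highest value of the 9 libraries, and the part of endothelial RNA in them was not tested. Within that sum Pecam1, Cdh5 and Esam were the highest of the 9 libraries there, while Tek and Slco1a4 lay below all sham libraries.

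Sema3b, a secreted semaphorin, lay at 1.28 ± 0.57 (SE) with 9.59, 1.45 and 5.21 CPM against 3.02, 2.06 and 1.59 CPM in sham. In sham it lay at 0.547, 0.359 and 0.279 FPKM, so that it would not have passed the filter without the occluded libraries. Its higher value is therefore not independent of the filter. Its log2 fold change was 0.58 without celastrol replicate 1. Its highest value was in that library, also the library with the highest choroid plexus sum, and its lowest in celastrol replicate 2, with the lowest sum (8.08 CPM). The tMCAO libraries did not follow that order: replicates 2 and 3 had sums of 502 and 16.2 CPM, with Sema3b at 2.89 and 2.68 CPM. The relation of Sema3b to that sum was not tested. Unc5a (0.25 ± 0.11) and Plxnb1 (0.24 ± 0.12, or 0.14 without celastrol replicate 3) were the other higher genes by p, and Sema3a (−0.95 ± 0.40), Ephb3 (−0.51 ± 0.24) and Plxna3 (−0.44 ± 0.23, or −0.27 without celastrol replicate 1) the other lower ones.

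**Figure D4:**
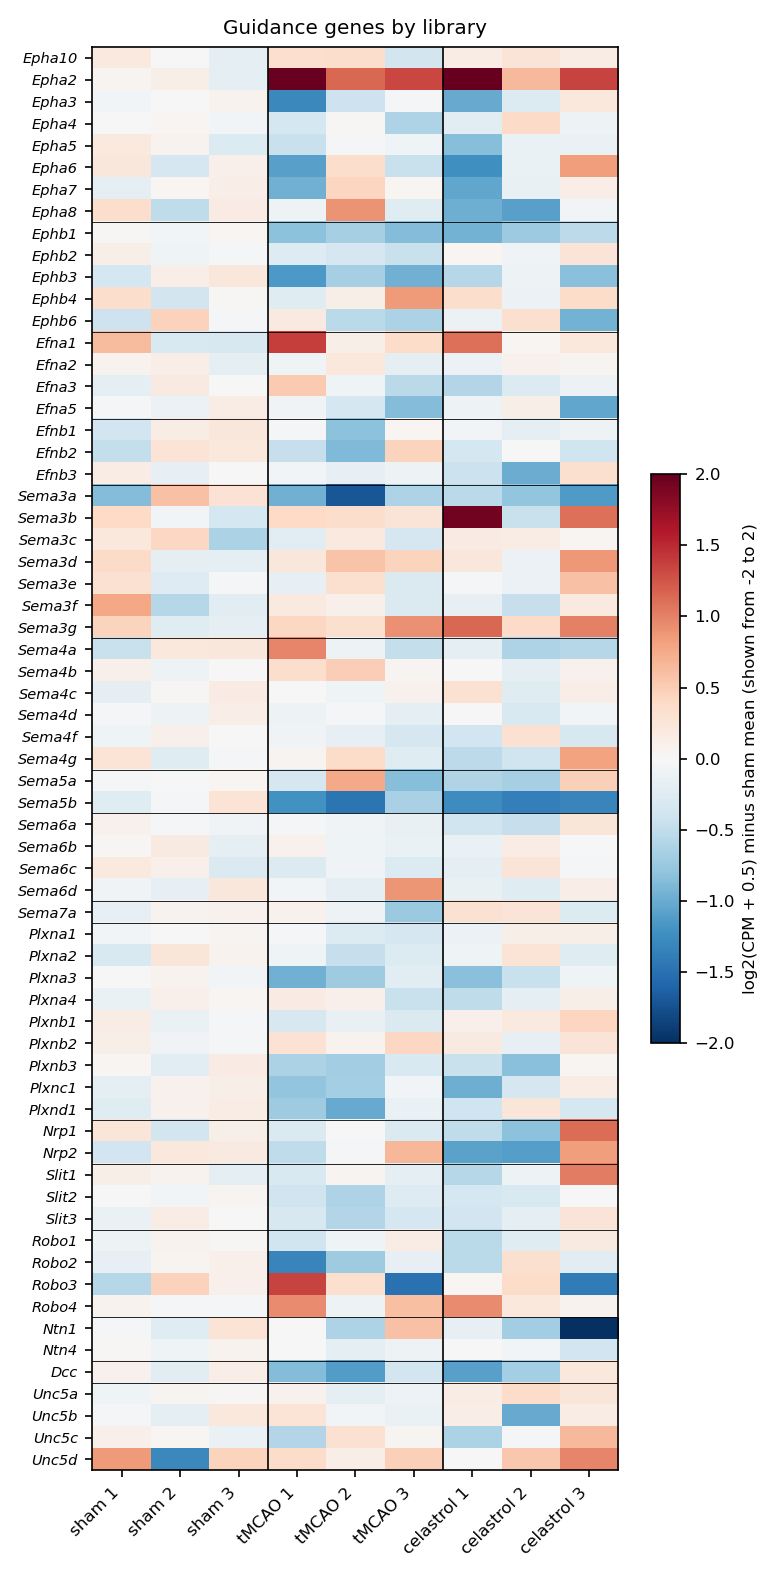
Log2(CPM + 0.5) of the 65 tested guidance genes in each library minus the sham mean, by family (rows) and group (columns); the colour scale ends at −2 and 2. Ephb1 and Sema5b are blue in all 6 occluded libraries and Epha2 is red in all 6, while many rows change colour between libraries of 1 group.

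The median spread within groups was larger over these genes than over all genes tested, though not every guidance gene varied more. The lower median level of the guidance genes was not taken into account. The pooled SD of log2 CPM had a median of 0.364 over the 65 guidance genes and of 0.278 over all genes tested. Robo3, a Robo of commissural neurons, varied most (1.075), followed by Sema3b (0.839), Epha6 (0.782), Nrp2 (0.759) and Unc5d (0.733). The least variable were Unc5a (0.111), Sema4d (0.126), Ephb2 (0.127), Plxna1 (0.129) and Plxnb1 (0.136), and so included the 3 genes whose groups did not overlap in celastrol against tMCAO.

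Celastrol replicate 3 was the highest of the 9 libraries in 19 of the 65 genes (29.2%), against 8.59% of all genes tested. Among them were Slit1 at 166 CPM, where the other libraries had 54.8 to 88.4 CPM, Nrp1 at 56.1 CPM against 14.3 to 30.5 CPM, and Nrp2 at 99.5 CPM against 25.5 to 87.6 CPM. In this library the hippocampal markers summed to 294 CPM, the highest of the 9, the thalamic markers to 338 CPM and the striatal markers to 190 CPM. Celastrol replicate 2 was the lowest library in 14 of the 65 (21.5%, against 11.7% of all genes) and celastrol replicate 1 in 12 (18.5%, against 11.6%). tMCAO replicate 2, with 547 CPM of thalamic markers, was the lowest in 11 (16.9%, against 8.57%), and sham replicate 1 in 0. Whether the region sampled sets these guidance levels was not tested.

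**Figure D5:**
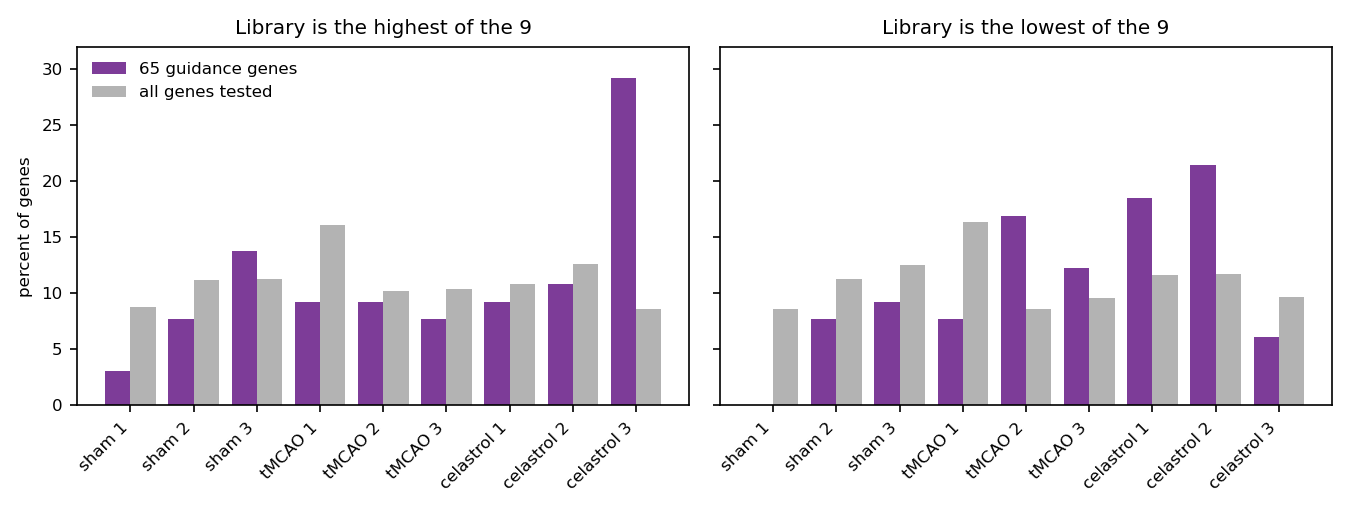
Percent of the 65 guidance genes (purple) and of all 16982 genes tested (grey) for which each library is the highest (left) or the lowest (right) of the 9. Celastrol replicate 3 is the highest in 29.2% of the guidance genes and 8.59% of all genes.

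Genes that act with these cues were read from lists of signalling partners, other cues, myelin and scar inhibitors and regeneration-associated genes (107 in all, 104 tested). edgeR called 0 of the 104 in each comparison. At an unadjusted p under 0.05 for celastrol against tMCAO 2 lay higher (1.92% of the 104, against 2.25% of all genes), Mical2 and Bcan, and 0 lower (against 1.86%). At an unadjusted p under 0.05 for tMCAO against sham, 8 lay higher (7.69%, against 8.56% of all genes) and 13 lower (12.5%, against 6.36%). DESeq2 called 4 higher (3.85%, against 3.28%) and 2 lower (1.92%, against 1.64%), so that its calls and the higher genes were near the background. Mical2, an oxidase of actin whose family acts downstream of plexins, was at 229 ± 3.53 CPM after tMCAO and 464 ± 83.0 CPM in sham (SD, n = 3 each; −1.02 ± 0.14, edgeR adjusted p = 0.0907) and was 1 of the DESeq2 calls. With celastrol it was at 335 ± 29.4 CPM, above all tMCAO and below all sham libraries. Vasp, an actin regulator at the leading edge of growth cones, lay higher after tMCAO (1.01 ± 0.25, edgeR adjusted p = 0.16), as did the small GTPase gene Rras (0.83 ± 0.24, edgeR adjusted p = 0.196), both called by DESeq2.

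Among 17 myelin and scar inhibitors and their receptors 7 lay lower (41.2%) and 1 higher (5.88%) after tMCAO at an unadjusted p under 0.05, where 6.36% and 8.56% of all genes did. This list, like the other partner lists, was chosen with earlier results of these data known, so its shares are no independent support. DESeq2 called 1 of the 17 lower (5.88%, against 1.64% of all genes) and 0 higher. The proteoglycan gene Bcan lay at −0.86 ± 0.17 (SE; edgeR adjusted p = 0.117), the Nogo receptor gene Rtn4r at −0.72 ± 0.23 (SE; edgeR adjusted p = 0.23) and its co-receptor Lingo1 at −0.75 ± 0.25 (SE; edgeR adjusted p = 0.235). Lingo1 overlapped between the groups, and the proteoglycan gene Vcan was the higher one (0.49 ± 0.18). Of 8 tested regeneration-associated genes, Atf3, a transcription factor of injured neurons, was at 17.9 ± 4.28 CPM after tMCAO and 0.995 ± 0.495 in sham (SD, n = 3 each; edgeR adjusted p = 0.125) and Jun at 101 ± 16.6 against 50.3 ± 7.75 CPM (edgeR adjusted p = 0.18). DESeq2 called both higher (25.0% of the 8, against 3.28% of all genes). Basp1, a protein of growth cone membranes, lay lower at an unadjusted p of 0.018 (−0.48 ± 0.17, edgeR adjusted p = 0.251). Groups did not overlap for 2 of the 8 higher and for 3 lower, Basp1, Stmn2 (−0.24 ± 0.14) and Gap43 (−0.60 ± 0.33), and the median over the 8 was −0.04. Over all genes tested 12.4% lay wholly higher and 11.1% wholly lower. Of the 115 other rows with the table's KEGG axon guidance term, 111 were tested. For tMCAO against sham edgeR called 0, and 11 lay higher (9.91%, against 8.56% of all genes) and 12 lower (10.8%, against 6.36%) at an unadjusted p under 0.05. The 5 DESeq2 calls, Ilk, Myl12a, Plcg2, Rac2 and Rras, all lay higher (4.5%, against 3.28%), and these counts of higher genes are near the background. The median log2 fold change was −0.08 over these rows, −0.10 over the guidance ligands and receptors and 0.01 over all genes tested.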

How the data were processed

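Ribosomal RNA-depleted total RNA was sequenced as paired reads of the ischemic hemisphere, per the labels' protocols, in 3 groups of 3 libraries. The authors deposited 1 table of 55385 rows with a whole-number estimated count (an expected count) and an FPKM for each gene in each library. The submitters' processing notes list HISAT2 2.0.4, cutadapt 1.9, DESeq2, edgeR and StringTie 1.3.4d, and the build mm10, without settings or strandedness. With strand unknown, overlapping genes are uncertain: 40 guidance genes overlap another row, 9 of them a row past the filter.

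Genes with at least 0.5 FPKM in at least 3 of 9 libraries (16982) entered 1 fit of all 9 libraries in edgeR 4.0.16 (R 4.3.3; TMM scaling, glmQLFit and glmQLFTest, two-sided, Benjamini-Hochberg over all genes, threshold 0.05). The SE, which is approximate, is the size of the log2 fold change over the root of F. CPM are TMM-scaled counts, and FPKM served only for levels between genes and for alternatives. Groups were called not overlapping when all 3 CPM values of one lay beyond all 3 of the other. Alternatives were DESeq2 1.42.0, limma 3.58.1 on log2(FPKM + a pseudocount), another scaling, other filters, the newer quasi-likelihood form, 2 groups only, a replicate block and leaving out each library. The fit was checked on simulated counts. All pairs of libraries differed by far more than sampling noise (smallest chi-square over its degrees of freedom 69.0). Counting error is small at 60392960 to 75158625 estimated counts per library, and 3 libraries a group limit the precision.

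Genes were named by rule: those past the threshold, filled by smallest unadjusted p to 10 in a direction (tMCAO against sham) or 5 (the celastrol comparisons), the most abundant member of each family, and members without overlap. Other genes, such as those at the ends of a range or with a library that stands apart, were chosen after their values were seen. The members, marker and partner lists were chosen with earlier results of these data known.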

Additional observations from a re-analysis of the deposited data

How the results depend on the processing

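The count of guidance genes called by edgeR stayed at 0 in each comparison with another scaling, other filters, the newer quasi-likelihood form, limma, 2 groups only and each library left out (0 to 0). DESeq2 called 4 (tMCAO against sham) and 3 (celastrol against sham), and the cause of the difference was not tested. The median log2 fold change for tMCAO against sham was −0.01, −0.02 and −0.01 in limma with 0.5, 0.1 and 1 added to FPKM, where the median of all genes was 0.09, 0.10 and 0.08. Leaving out 1 library gave medians of −0.17 to −0.09 for tMCAO against sham, −0.05 to 0.11 for celastrol against tMCAO and −0.16 to −0.01 for celastrol against sham. Without tMCAO replicate 3 the direction turned for Sema6d (−0.13) and Ephb4 (−0.10) in tMCAO against sham and for Sema6d in celastrol against tMCAO (0.04), with ranges over all libraries left out of −0.13 to 0.48, −0.10 to 0.54 and −0.57 to 0.04. Over all 65 genes tested, the direction turned with at least 1 library left out in 23 (tMCAO against sham), 43 (celastrol against tMCAO) and 28 (celastrol against sham), and in another fit in 12, 4 and 8. No guidance gene was called in any alternative other than DESeq2.

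Over all genes the count called for tMCAO against sham went from 0 to 836 with DESeq2 and from 0 to 91 with single libraries left out (91 without celastrol replicate 2), for celastrol against tMCAO from 0 to 18 with DESeq2, and for celastrol against sham from 1 to 380 with DESeq2 and 0 to 46 with single libraries left out. Guidance genes at an unadjusted p under 0.05 numbered 7 to 15, 3 to 10 and 3 to 13 in the 3 comparisons with single libraries left out, against 12, 4 and 6.

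Overlap counts on deposited FPKM, an alternative chosen after the data were seen, were 7 lower and 2 higher genes for tMCAO against sham, 3 higher and 1 lower for celastrol against tMCAO, and 3 higher and 2 lower for celastrol against sham, against 11 and 1, 3 and 0, and 3 and 3 in CPM.

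With the replicate number as a block, edgeR called 0 guidance genes in each comparison, with medians of −0.10, 0.06 and −0.14, and 51 of all genes for tMCAO against sham. Libraries with the same number did not deviate together (correlations −0.16 to 0.20 over 9 pairs, −0.26 to 0.23 over 18 pairs of other numbers), so the numbers are not taken to pair the animals.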
